A study of Homo sapiens with 7 samples.

Results

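The windows described here replicated late in K562 and early in U2OS. They were chosen by their measured timing: each is an autosomal stretch of 250 kb with at least 3 probes on each of 7 arrays. Windows were ranked within each array from 0, the latest, to 1, the earliest. A window was kept when its rank lay below 0.45 on all 3 K562 arrays and above 0.55 on all 4 U2OS arrays. Of 8437 windows ranked, 278 met this rule (3.30%), against 187 that were early in K562 and late in U2OS, 2220 late in both lines and 2310 early in both. Because these ranks chose the windows, the difference between K562 and U2OS is described below and not tested.

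DNA replication follows a programme in which large domains are copied at set times of S phase. Gene-rich, open chromatin is in general copied early, and gene-poor chromatin at the nuclear periphery late. Part of the genome switches between early and late as cells take on different identities, in units of whole domains that often hold genes specific to a lineage. K562 is a suspension line from chronic myeloid leukaemia with erythroid and megakaryocytic features, and U2OS is an adherent line from an osteosarcoma.

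All 7 arrays were made from cells given bromodeoxyuridine (BrdU, a thymidine analogue) at 50 µM for 2 h, fixed and stained with propidium iodide, of which 80000 were sorted by DNA content into 2 fractions, early S phase and late S phase. BrdU-labelled DNA was recovered with an antibody and amplified, and the early fraction was labelled with Cy3 (green) and the late fraction with Cy5 (red) on every array. K562 was measured on 1 array after a new sorting method, 1 after an old sorting method and 1 of a smaller design labelled 44k, whose sorting method the labels do not give. U2OS was measured on 2 arrays labelled manual and 2 labelled automated, without a statement of which step differed. No other treatment or genotype is given in the labels, and nothing says that arrays of a group came from separate cultures, so their spread may be technical. Timing is given as log2(early/late), the green over the red signal, relative to the median window of the array. Positive values mean early.

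Arrays differed in brightness: the median green signal above background ran from 76.3 to 252.4 and the median red signal from 58.7 to 320.9. On the K562 44k array 8.81% of the spots were well above background in red, against 40.2% to 96.4% on the others. Both manual arrays shared a slide, the other arrays had a slide each, and no slide held both cell lines, so slide and cell line, and slide and handling, cannot be told apart. At CDKN2A and MTAP, a region known to be lost from K562, the green signal of the probes was 0.243, 0.715 and 0.253 times the array median on the new sorting, old sorting and 44k arrays, and 0.763 to 1.05 times on the U2OS arrays. In red the ratios were 0.299, 0.364 and 0.446 in K562, 0.768 and 0.835 for U2OS manual and 0.299 and 0.413 for U2OS automated. The check thus did not clearly separate the old sorting array from U2OS in green, nor any K562 array from the automated U2OS arrays in red. Over all 8437 windows the ranks of the old sorting array correlated more closely with the new sorting array (Spearman's r = 0.807) than with any U2OS array (r from 0.583 to 0.623). These correlations run across windows of single arrays.

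The array read each window through oligonucleotides of 60 bases, and a single probe from each of 5 leading windows shows what was measured. Each is the probe present on both array designs that lies nearest the centre of its window. Positions are on build hg19 and CpG dinucleotides, where cytosine methylation occurs, are in capitals. The probe table names the gene but gives neither strand nor exon, so exonic or intronic position was not determined here.
TM4SF1, chr3:149094998-149095057: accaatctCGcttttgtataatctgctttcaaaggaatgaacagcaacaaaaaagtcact
CREB5, chr7:28387089-28387148: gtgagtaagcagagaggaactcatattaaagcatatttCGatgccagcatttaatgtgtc
PLA2R1, chr2:160884836-160884895: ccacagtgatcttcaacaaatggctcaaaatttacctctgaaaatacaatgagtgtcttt
HHAT, chr1:210641039-210641098: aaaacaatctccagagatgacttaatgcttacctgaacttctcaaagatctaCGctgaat
DNAH5, chr5:13916435-13916494: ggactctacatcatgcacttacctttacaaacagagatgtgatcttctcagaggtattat
The DNAH5 probe had a log2(early/late) of -2.34, -0.80 and -2.36 on the new sorting, old sorting and 44k K562 arrays. On the U2OS arrays the same probe had 1.01 and 1.19 (manual) and 1.46 and 1.09 (automated). The HHAT probe had -2.13, -0.98 and -1.68 in K562, and 1.16, 0.91, 1.59 and 1.09 in U2OS. The TM4SF1 probe had -1.90, -0.97 and -1.86 in K562, and 0.11, 2.45, 1.52 and 1.27 in U2OS. A single probe was therefore noisy, as the TM4SF1 value of manual array 1 shows. All 3 probes kept apart the K562 and the U2OS arrays, which follows largely from taking them from the windows with the widest gaps. The window means below average 7 to 32 probes (median 18) on the larger design and 3 to 18 (median 5) on the 44k array.

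Over the 278 windows the median rank was 0.329 on the K562 new sorting array, 0.196 on the old sorting array and 0.327 on the 44k array. On the U2OS arrays it was 0.722 and 0.766 (manual) and 0.747 and 0.730 (automated). The median log2(early/late) was -1.21, -0.78 and -0.92 on the K562 arrays in the same order, and 0.60, 0.60, 0.90 and 0.78 on the U2OS arrays. The spread of log2(early/late) over all windows also differed, with an SD of 1.18, 0.60 and 1.02 on the K562 arrays. On the U2OS arrays this SD was 0.79, 0.79, 1.18 and 0.99. Log2 values here and below are not scaled between arrays unless stated, so ranks compare arrays more directly. Every one of the 278 windows was below the median window on each K562 array and above it on each U2OS array, as the rule requires. Among the single probes whose means the rule ranked, 93.1% ± 2.81 (SD, n = 3 arrays) of those in these windows lay below the array's median probe in K562 and 12.8% ± 3.46 (SD, n = 4 arrays) in U2OS.

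**Figure D1:**
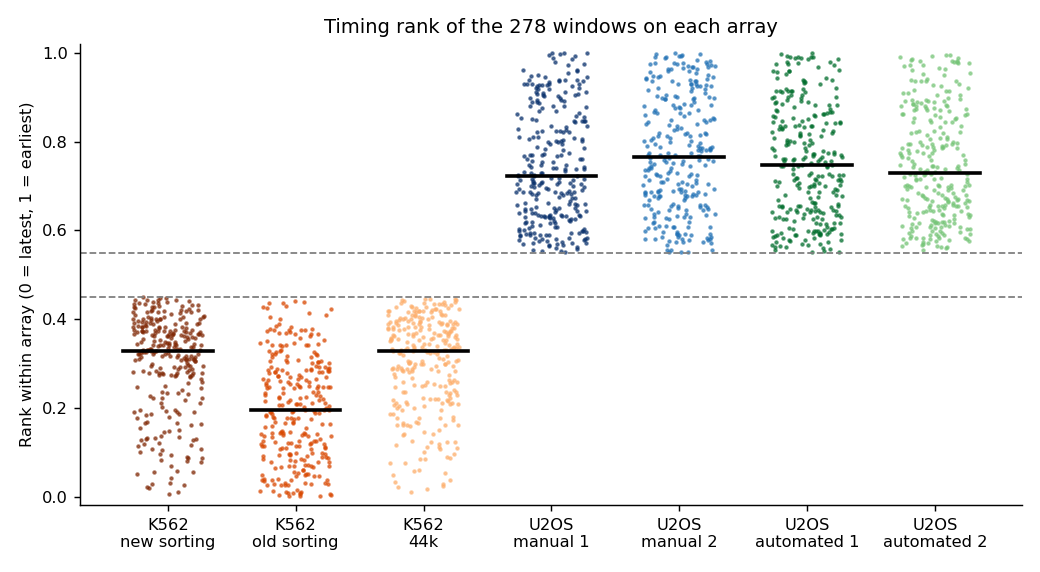
Rank of each of the 278 windows (points) on each of the 7 arrays, on a scale from 0 (latest) to 1 (earliest); black bars are medians and dashed lines the limits of 0.45 and 0.55. The points crowd toward the limit on the K562 new sorting and 44k arrays (medians 0.329 and 0.327) and lie lower on the old sorting array (0.196).

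Most of the windows were not at the extremes of the programme. In 45 windows the mean rank was under 0.25 in K562 and over 0.75 in U2OS. In 108 windows the K562 mean was under 0.25, in 145 the U2OS mean was over 0.75, and 70 windows met neither limit. The K562 arrays also placed the windows differently: 237 of the 278 ranked lower on the old sorting array than on the new sorting array, with a median difference of -0.099 (SD 0.110 over windows). In windows late in both lines that median difference was 0.0013. The lower rank was not particular to this set. In windows with the opposite pattern the mean rank was 0.748 on the old and 0.801 on the new sorting array. In windows next to the described runs, at 250 kb, it was 0.335 and 0.398. The 44k and new sorting arrays differed by a median of -0.0025 (SD 0.0445). There was 1 array per K562 condition, so these values carry no test.

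At the edge of the rule stood the CRP window (chr1:159500001-159750000), whose lowest U2OS rank was 0.5503, and the OTUD7A window (chr15:31750001-32000000) with 0.5504. Just outside were the FILIP1 window (chr6:76000001-76250000), with a highest K562 rank of 0.4501, and a window on chromosome 14 (start 59250001) with a lowest U2OS rank of 0.5496. Windows that failed the rule on exactly 1 array numbered 117, most often on U2OS manual array 2 (36 windows) and the K562 44k array (24 windows). The values on each side of the limits differed by less than the spread between arrays.

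Both colours took part in the shift. In K562 the early, green signal of the windows was dim, with a median of -0.36 ± 0.21 (SD, n = 3 arrays) in log2 units relative to the median window, and the late, red signal was bright at 0.51 ± 0.13. In U2OS the order was turned, with green at 0.41 ± 0.08 and red at -0.35 ± 0.08 (SD, n = 4 arrays). The mean of both channels stayed near the median window, at 0.08 ± 0.16 in K562 and 0.02 ± 0.03 in U2OS. On the old sorting array it stood at 0.26, with green at -0.12 and red at 0.63, so there the late fraction stood farther from the median window than the early fraction. Between 201 and 242 of the 278 windows had a lower green signal than the median window on the K562 arrays, and 37 to 54 on the U2OS arrays.

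**Figure D2:**
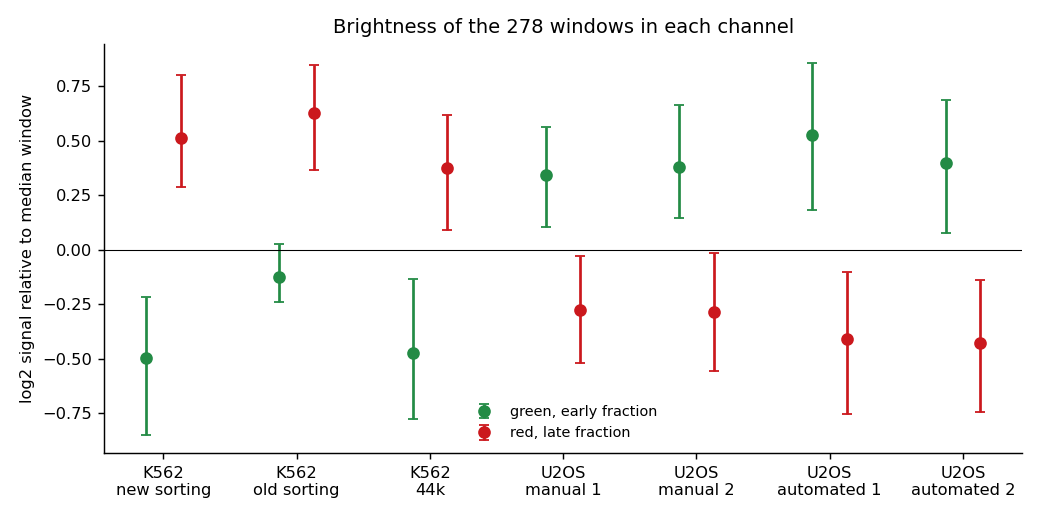
Median log2 signal of the 278 windows relative to the median window of the array, in green for the early and in red for the late fraction, on each of the 7 arrays; bars span the lower to the upper quartile over windows. Red lies above green on the 3 K562 arrays and green above red on the 4 U2OS arrays, and the green median of the K562 old sorting array (-0.12) is the nearest to 0 among the K562 arrays.

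The 10 windows with the widest gap between the lowest U2OS rank and the highest K562 rank held genes of varied function. The widest gap, 0.742, was at chr3:149000001-149250000. This window holds TM4SF1, TM4SF4 and TM4SF18, which encode tetraspanin-like membrane proteins, and WWTR1 (TAZ), a transcriptional coactivator of the Hippo pathway. Its log2(early/late) was -1.86, -1.20 and -1.54 on the K562 new sorting, old sorting and 44k arrays, and 0.93, 1.23, 1.43 and 1.17 on U2OS manual 1, manual 2, automated 1 and automated 2. The K562 mean was -1.53 ± 0.33 (SD, n = 3) against a U2OS mean of 1.19 ± 0.21 (SD, n = 4). The distance between the lines here follows from picking the window by its gap, so it is no separate evidence of a difference.

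The SH3RF3 and SEPTIN10 window (chr2:110250001-110500000) had the next gap, 0.732; SEPTIN10 encodes a septin, a GTP-binding cytoskeletal protein. It stood at -2.03, -1.25 and -1.32 in K562 and at 1.37, 1.16, 1.32 and 1.29 in U2OS, where its rank was 0.967 or more on every array. The CREB5 window (chr7:28250001-28500000), on a transcription factor of the CREB family, stood at -2.06, -1.03 and -1.87 in K562 and at 0.95, 0.70, 1.07 and 1.13 in U2OS. On the K562 arrays it ranked between 0.0605 and 0.115, within the latest part of the genome.

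The THSD4, LRRC49 and CT62 window (chr15:71250001-71500000) stood at -1.96, -1.03 and -1.47 in K562 and at 1.05, 0.90, 1.19 and 1.02 in U2OS; THSD4 encodes an ADAMTS-like protein that binds fibrillin in the extracellular matrix. The PLA2R1 and ITGB6 window (chr2:160750001-161000000) carries the phospholipase A2 receptor and the integrin subunit beta 6. It stood at -1.87, -1.41 and -1.47 in K562 and at 0.90, 0.87, 1.19 and 0.98 in U2OS. In both windows the U2OS arrays spread less in unscaled log2 (SD 0.12 and 0.14, n = 4) than the K562 arrays (SD 0.47 and 0.25, n = 3). In rank the SDs were 0.0347 and 0.0271 in U2OS and 0.0443 and 0.0992 in K562, so the first window spread nearly alike in both lines.

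HHAT, the acyltransferase that adds palmitate to Hedgehog proteins, lay in a window (chr1:210500001-210750000) at -2.05, -1.08 and -1.61 in K562 and 0.86, 0.62, 1.24 and 1.1 in U2OS. SVIL, which encodes the actin-binding protein supervillin, lay in a window (chr10:30000001-30250000) at -1.51, -0.75 and -1.27 in K562 and 1.35, 0.98, 1.19 and 1.06 in U2OS. The DNAH5 window (chr5:13750001-14000000), on an axonemal dynein heavy chain, was among the latest in K562, with ranks of 0.0200, 0.0831 and 0.0283, while its U2OS ranks of 0.708, 0.947, 0.990 and 0.844 were the most scattered of the 10. The COPS8 window (chr2:237750001-238000000), on a subunit of the COP9 signalosome, was the least late in K562 in mean rank (0.271 ± 0.00988, SD, n = 3) and stayed at 0.974 ± 0.0137 (SD, n = 4) in U2OS. A window of chromosome 11 (start 130500001) carried no gene named in RefSeq and had a mean of -1.53 ± 0.46 (SD, n = 3) on the K562 arrays and 1.03 ± 0.14 (SD, n = 4) on the U2OS arrays.

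**Figure D3:**
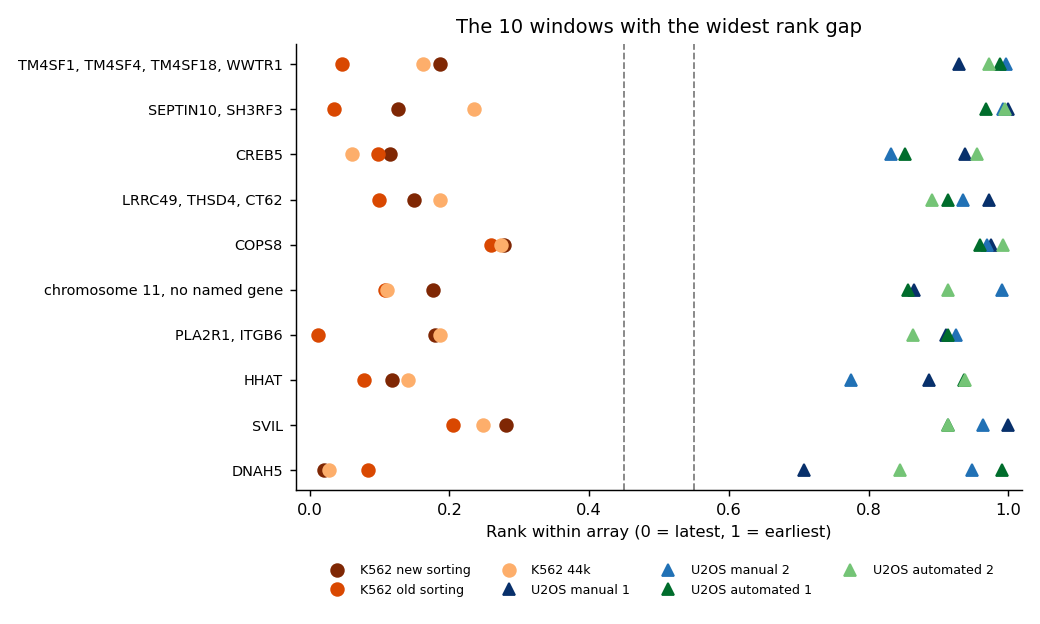
Rank on each array (0 = latest, 1 = earliest) of the 10 windows with the widest gap; circles are the 3 K562 arrays, triangles the 4 U2OS arrays and dashed lines the limits of 0.45 and 0.55. The highest K562 rank is 0.281, in the SVIL window, and the lowest U2OS rank is 0.708, in the DNAH5 window.

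Adjacent windows were often in the set together. The 278 windows formed 171 runs, of which 109 were single windows, 62 held at least 2 windows and 28 at least 3. The 187 windows with the opposite pattern formed 130 runs, 37 of them with at least 2 windows. The longest run covered 6 windows (1.5 Mb) at chr4:169000001-170500000. Its genes are DDX60 and DDX60L, a pair of interferon-induced helicases, the annexin ANXA10, the actin-associated protein PALLD, the reductase CBR4, the ubiquitin ligase SH3RF1 and the kinase NEK1. The mean rank of this run was 0.280, 0.237 and 0.244 on the K562 arrays and 0.784, 0.875, 0.729 and 0.690 on the U2OS arrays. Some windows beside runs were not ranked, because they had fewer than 3 probes on at least 1 array (66 of 342 run ends), so those runs may be longer than given.

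Both runs of 5 windows spanned 1.25 Mb. The run on chr15:99000001-100250000 holds IGF1R, the receptor of insulin-like growth factor 1, the intermediate filament gene SYNM, the muscle transcription factor gene MEF2A and TTC23, PGPEP1L, LRRC28 and FAM169BP. Its mean rank was 0.286 over the K562 arrays and 0.736 over the U2OS arrays. The run on chr18:56250001-57500000 holds MALT1, a paracaspase of lymphocyte signalling, the kinase gene ALPK2, the retinal homeobox gene RAX, the gastrin-releasing peptide gene GRP, the lymphatic growth gene CCBE1, and ZNF532, CPLX4, SEC11C and LMAN1. Its mean rank was 0.288 in K562 and 0.799 in U2OS. Of the runs of 4 windows, the TM4SF1 and WWTR1 run on chromosome 3 also held HLTF, CP (ceruloplasmin), HPS3, COMMD2, ANKUB1, RNF13 and PFN2, with a mean rank of 0.204 in K562 and 0.889 in U2OS. A run of 4 on chromosome 11 (start 130250001) held the metalloprotease genes ADAMTS8 and ADAMTS15, SNX19 and the neural adhesion gene NTM, at 0.192 and 0.806.

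In 50-kb steps, the leading windows lay in domains of 200 to 1150 kb in which both K562 arrays of the larger design were below and all 4 U2OS arrays above their median probe. The domain around TM4SF1 and WWTR1 was 1150 kb long, that around HHAT 1000 kb, that around DNAH5 950 kb and that around CREB5 650 kb. Around SH3RF3 the stretch of 200 kb ended on both sides at bins with no probe. The DNAH5 domain ran to one side, from -75 to 875 kb of the window's centre, into TRIO, a guanine nucleotide exchange factor gene of which all 3 ranked windows were in the set.

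**Figure D4:**
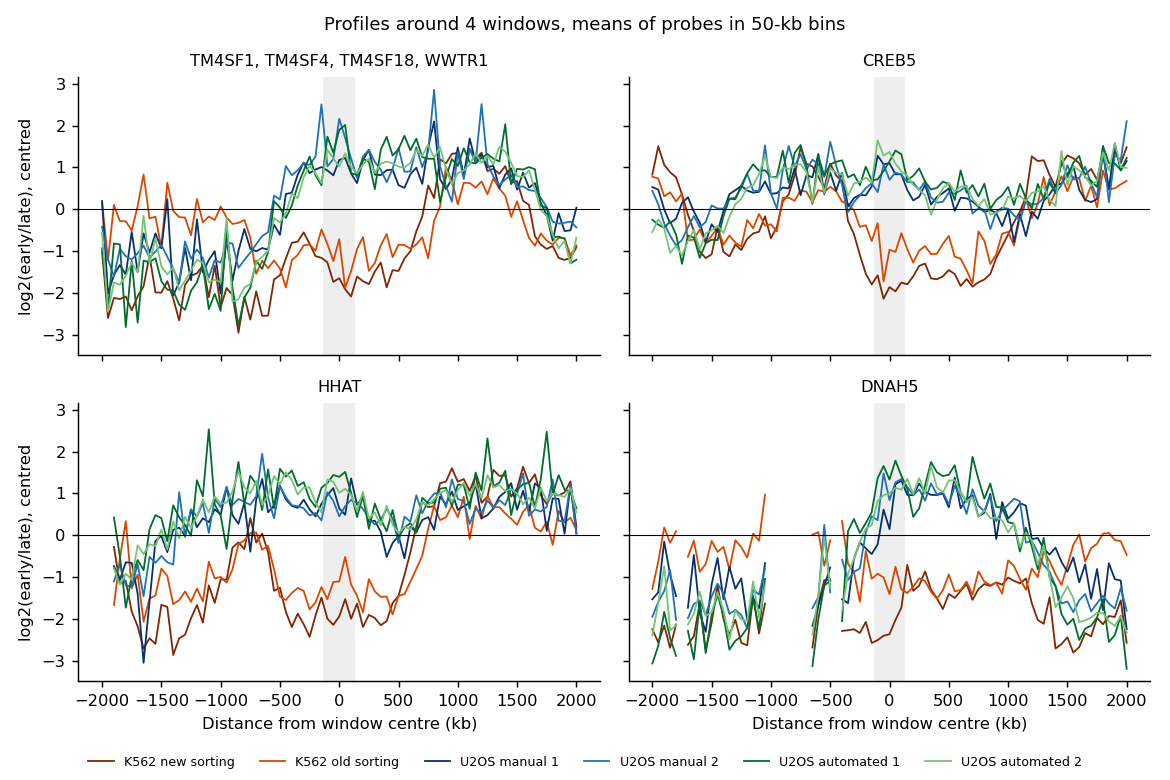
Mean log2(early/late) in 50-kb bins, relative to the median probe of the array, against distance from the centre of 4 windows (grey band) on the 6 arrays of the larger design; gaps are bins without probes. The K562 lines (brown and orange) lie below 0 and the U2OS lines (blue and green) above 0 over the extents given in the text, and the lines come together on the right of the TM4SF1, CREB5 and HHAT panels.

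Away from the runs the lines drew together. Inside the windows the mean rank was 0.265 ± 0.0582 over the K562 arrays (SD, n = 3) and 0.755 ± 0.0125 over the U2OS arrays (SD, n = 4). In the next window outward it was 0.382 ± 0.0414 and 0.643 ± 0.00673, over 276 ranked windows, and at 500 kb it was 0.476 ± 0.0274 and 0.599 ± 0.0075. At 1000 kb the values were 0.519 ± 0.00779 and 0.533 ± 0.00758, near the middle of the scale in both lines. These SDs are between array means. Single windows at 1000 kb spread widely, with an SD of 0.285 to 0.294 over 283 windows on each array. The ranks of an array centre on the middle of the scale, so a mean near it describes a wide mix of windows. A window beyond a run's end fails the rule by construction, so the first step outward is fixed in part by the choice of windows. Walking outward up to 2 Mb to the first window that was early or late in both lines, 72 of 171 runs had an early window on one side and a late window on the other. Early windows stood on both sides of 34 runs and late windows on both sides of 33, and 32 runs had a side that met neither. For the 130 runs with the opposite pattern these counts were 50, 10, 39 and 31.

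**Figure D5:**
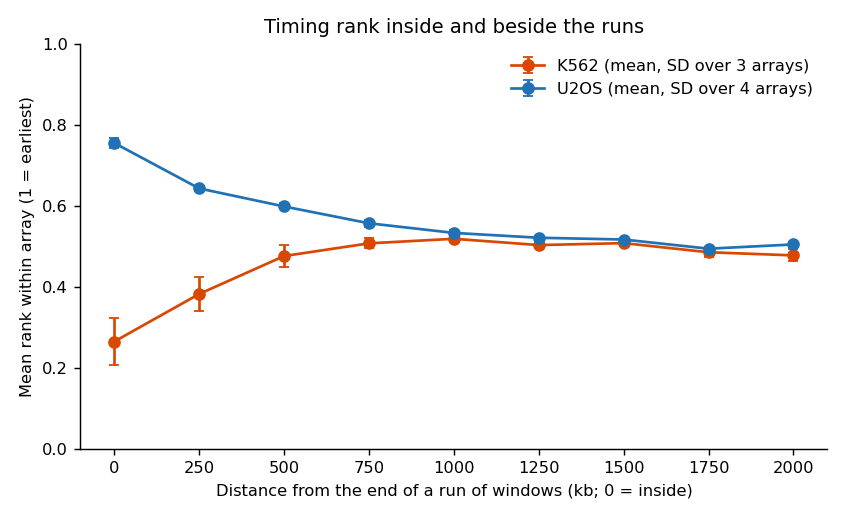
Mean rank of windows inside the runs (0 kb) and at 250 to 2000 kb from their ends, in K562 (mean and SD over 3 arrays) and U2OS (mean and SD over 4 arrays). The lines are 0.265 and 0.755 inside the runs and 0.519 and 0.533 at 1000 kb.

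The windows were unevenly spread over the chromosomes. Chromosome 1 held 35, chromosome 10 held 28 and chromosome 3 held 27. As a share of ranked windows, chromosome 15 (20 of 287, 6.97%) and chromosome 10 (28 of 425, 6.59%) had the most. Chromosomes 19 and 22 had none of 210 and 135, and chromosome 16 had 1 of 247. Windows with the opposite pattern were most numerous on chromosomes 6 and 7, with 20 each, where the described set had 6 and 14. Neighbouring windows share a domain, so these counts are not independent, and the differences were not tested.

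In gene content the windows stood between those late and those early in both lines. Of their 4846 probes, 62.9% lay in a gene named in RefSeq, against 63.7% over all ranked windows, 60% in windows late in both and 67.7% in windows early in both. They held 1.82 ± 1.28 named genes each (SD over 278 windows), against 1.1 ± 0.974 in windows late in both and 3.68 ± 2.33 in windows early in both. No named gene was present in 8.63% of them, against 22.4% and 1.30%. Of their genic probes, 43.0% lay in genes whose probes spanned 200 kb or more, against 72.1% and 14%. Windows with the opposite pattern had nearly the same values, with 1.91 ± 1.48 genes and 41.2% in long genes. The GC content of the probes was 36.4% in the windows and 36.5% over all windows, a narrow range that the array design sets.

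In all, 452 of 16112 named genes (2.81%) had a probe in one of the 278 windows, and for 327 of them every ranked window belonged to the set. Windows with the opposite pattern held a probe of 331 genes (2.05%). FRMD4A, PALLD, TRIO, ROR1 and IGF1R reached into at least 3 of the windows. Gene lists were chosen with earlier results of these data known, so their counts describe the set and support nothing by themselves.

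Of the 6 lists, genes of the extracellular matrix and of growth factor signalling had the largest shares. A long gene reaches more windows and so has more chances to be counted; counted by windows, the shares were 10.5% of 57 and 11.9% of 84, against 3.30% of all ranked windows. Of 43 matrix genes, 5 (11.6%) had a probe in the windows and none in windows with the opposite pattern. These were COL5A1 and COL6A3, chains of fibrillar and microfibrillar collagens, LAMC1, a laminin chain of basement membranes, TNC, the matrix glycoprotein tenascin C, and ADAMTS12, a matrix metalloprotease. The TNC window (chr9:117750001-118000000) stood at -2.11, -1.12 and -1.77 in K562 and at 0.38, 0.58, 0.92 and 0.88 in U2OS. It was the latest of the 5 in K562 apart from ADAMTS12 on the old sorting array, where ADAMTS12 had ranks of 0.00213 and 0.0269 in its windows. COL5A1 (chr9:137500001-137750000) was nearer the middle in K562, at -0.77, -0.72 and -0.52, and split by handling in U2OS, with 0.64 and 0.39 from manual and 1.46 and 1.19 from automated handling, though it was not called between the handlings after scaling (limma adjusted p = 0.0531). Only part of COL6A3 belonged to the set, since 7 of its probes lay in the next window, where the K562 ranks were 0.505, 0.712 and 0.526. Over all 57 windows of the list the median rank was 0.277 in K562 and 0.455 in U2OS.

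Of 50 growth factor ligands and receptors, 6 (12.0%) were in the windows and none in windows with the opposite pattern. They comprise the receptors PDGFRA, IGF1R, ROR1 and LIFR, the ligand TGFB2 and the BMP antagonist GREM1. The PDGFRA window (chr4:55000001-55250000) stood at -0.91, -0.79 and -0.90 in K562 and at 1.33, 1.24, 0.86 and 0.89 in U2OS, with U2OS ranks of 0.999 and 0.996 on the manual arrays. The TGFB2 window (chr1:218500001-218750000) was late in K562, at -2.14, -1.50 and -1.54, and moderately early in U2OS, at 0.73, 0.58, 0.61 and 0.69. ROR1, an orphan receptor of Wnt5a signalling, covered 3 windows from chr1:64000001, all late in K562 with ranks from 0.0491 to 0.235. In U2OS these windows ranked from 0.551 to 0.761, not far above the limit. IGF1R spanned 3 windows with K562 ranks from 0.0594 to 0.412 and U2OS ranks from 0.660 to 0.937. The list's median rank over its 84 windows was 0.342 in K562 and 0.475 in U2OS.

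Of 47 cytoskeleton and adhesion genes of adherent cells, 5 (10.6%) were in the windows, and 1, PDLIM5, was in a window with the opposite pattern. Counted by windows, the share of this list was 8.54% of 82. The 5 were CALD1 (caldesmon), PALLD (palladin), the integrin subunit ITGA2, SYNPO2 (synaptopodin 2) and TNS3 (tensin 3). PALLD lay wholly in the set; its central window (chr4:169500001-169750000), with 24 of its probes, stood at -1.84, -1.0 and -1.57 in K562 and at 0.87, 0.93, 0.63 and 0.60 in U2OS. This window and the PALLD window before it (start 169250001) were called later on the automated arrays. Their scaled differences were -0.54 and -0.73 (limma adjusted p = 0.0382 and 0.0295). ITGA2 (chr5:52250001-52500000) was weakest in U2OS, at 0.19, 0.24, 0.32 and 0.31, on all 4 arrays just above the limit. CALD1 had its other window left out because automated arrays 1 and 2 ranked it at 0.524 and 0.536.

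Of 42 skeletal and mesenchymal transcription factors only GLI2, a transcription factor of Hedgehog signalling, was in the windows (2.38%, or 1.79% of the list's 56 windows). ZEB2 and PAX9 lay in windows with the opposite pattern. Of the 36 blood lineage genes measured from that list none was in the windows. IKZF1 and PF4, a lymphoid transcription factor and a platelet chemokine, lay in windows with the opposite pattern. The list is a selection: MALT1, of lymphocyte signalling, was not on it and lay in the windows. In lists of this size, counts of 0 to 2 are near the shares over all genes, 2.81% and 2.05%, and the same holds for the absence of matrix and growth factor genes from the opposite pattern. Of 50 neuronal adhesion and synapse genes 2 (4%) were in the windows, SLIT3 and TENM2, and 38 reached into windows late in both lines. Counted by windows, the share of this list was 1.6% of 188, against 3.30% of all ranked windows. TENM2 and SLIT3 lay in the same run on chromosome 5, and each was in the set only in part. At SLIT3 (chr5:168000001-168250000) the window in the set stood at -0.85, -0.59 and -0.51 in K562 and at 0.43, 0.39, 1.20 and 1.08 in U2OS. It was called earlier on the automated arrays, with a scaled difference of 0.50 (limma adjusted p = 0.0433). The remaining windows of SLIT3 ranked from 0.374 to 0.602 in U2OS and missed the limit.

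The comparison of handling in U2OS asks whether manual and automated preparation gave the same timing. The rule did not rank windows by this difference, but it required a rank above 0.55 on all 4 arrays compared, which leaves out windows where the handlings disagreed strongly. Values were scaled so that all 4 arrays had the same spread, and compared with limma (Benjamini-Hochberg adjusted p under 0.05 over all windows). Over all 8437 windows 751 differed (8.90%), and among the 278 windows 13 did (4.68%). Of these, 5 were earlier on the automated arrays (4.24% of all windows were called so) and 8 were later (4.66% of all windows). Other windows chosen for agreement across arrays were called in 2.73% (63 of 2310, early in both lines) and 6.58% (146 of 2220, late in both), and windows in no class in 14.8% (509 of 3442). Since the choice of windows bears on these shares, nothing is read from the members' share. The median difference, automated minus manual, was -0.02 in the 278 windows with scaling and 0.21 without it. Over all windows it was -0.02 both ways, near 0 because each array was centred.

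The GLI2 window (chr2:121500001-121750000) had the largest shift to earlier timing: scaled log2(early/late) was 0.47 and 0.31 after manual and 1.19 and 1.1 after automated handling. The difference was 0.76 (SE 0.13, limma adjusted p = 0.0166). OTUD7A, a deubiquitinase gene, stood at 0.26 and 0.19 against 0.92 and 0.76, a difference of 0.61 (SE 0.13, limma adjusted p = 0.0284). The window of ZBTB10, a zinc finger gene (chr8:81250001-81500000), moved the other way, from 1.38 and 1.27 to 0.38 and 0.57, a difference of -0.85 (SE 0.13, limma adjusted p = 0.0155). The PDGFRA window went from 1.54 and 1.52 to 0.70 and 0.81, a difference of -0.77 (SE 0.12, limma adjusted p = 0.0157). In these 4 windows the manual and automated arrays did not overlap, which follows largely from naming the largest differences among the windows called. With the deposited log ratio, OTUD7A had a difference of 0.65 (limma adjusted p = 0.0602) and PDGFRA -0.44 (limma adjusted p = 0.132). Without background subtraction the PDGFRA difference was -1.38, and that of OTUD7A was 0.38 (limma adjusted p = 0.00374 and 0.0257). Without automated array 1 none of the 4 passed, with limma adjusted p from 0.0787 to 0.297, and without automated array 2 OTUD7A did not pass (limma adjusted p = 0.11).

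The count depended on the scaling. Without it, 2794 windows differed (33.1%), and among the 278 windows 45 did, 43 of them earlier on the automated arrays (12.1% of all windows were called so) and 2 later (21.0% of all windows). The PDGFRA difference was then -0.41 (limma adjusted p = 0.0535). Leaving out automated array 1 left 0 calls among the 278 windows under limma, and leaving out automated array 2 left 3. Leaving out manual array 1 or 2 gave 56 or 35. With the full set of arrays, 57 of the 278 windows had an unadjusted p under 0.05, against 2381 of 8437.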

How the data were processed

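Spot intensity in both channels and a log10 ratio were deposited by the authors as scanner output of Agilent Feature Extraction 11.5.1.1, per the file headers (the submitters' processing notes name version 9.1), with probe positions on build hg19. The log10 ratio (late over early) served as an alternative. Here the median local background was subtracted from the mean signal of each spot, values under 10 were set to 10 (up to 2.74% of the spots in the described windows, on U2OS manual array 2, which bounds their ratios), and log2 of green over red was taken. Repeated probes were averaged, then probes of a window by their midpoint. Control spots were left out, and no dye swap exists.

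Members, gene lists and named windows were chosen with earlier results of these data known. Windows named are the 10 widest gaps, the 5 longest runs (ties by gap), every listed gene in the set, the 2 largest handling differences per direction and the 2 windows nearest each side of the limits. Of 24256 names in the probe table, 16397 matched a RefSeq symbol or a single synonym (GRCh38.p14 table, used for names alone). Windows were compared with limma 3.58.1 (lmFit, eBayes) in R 4.3.3 after centring each array on its median window and scaling. The scaling gave every array the same median absolute deviation, the mean over the arrays compared, so differences stay in log2 units. On simulated shifts of 1 log2 unit in 200 of 8437 windows this comparison recovered 200, with 6 false calls. The simulated noise was normal, independent between windows and of 1 size for all of them, which real noise need not be. The named handling differences were smaller than 1 log2 unit, so the recovery does not carry over to them. The number of arrays limits the precision: exact tests of 2 against 2 arrays cannot go below p = 0.333. The U2OS array numbers 1 and 2 recur under both handlings, but deviations of same-numbered arrays correlated at -0.0995, so the numbers were not taken to pair them. Python 3.11.15 and pandas 2.3.3 were used otherwise.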

Additional observations from a re-analysis of the deposited data

Results flagged for a closer look

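In 43 sets of 4 U2OS values, 1 held an array far from the others. For independent, unselected sets chance alone gives about 1 in 20. Most of these sets were ranks that the rule kept above 0.55, and some came from adjacent windows. That rate need not hold here, and nothing is concluded from the count. The flagged set was the rank of the ROR1 window starting at chr1:64250001, which was 0.578 on manual array 1, 0.586 and 0.581 on the automated arrays and 0.708 on manual array 2. The gap to the nearest array was 0.937 of the whole range, past Dixon's 95% critical value.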

How the results depend on the processing

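The number of K562-late, U2OS-early windows stayed between 268 and 286 (main 278) with no background subtraction, normexp, the deposited log ratio, loess, a floor of 1 or 30, marked spots left out, or shifted windows, and 236 to 278 of the main set were shared or overlapped. Leaving out each array in turn gave 283 to 324 windows, counts that could not fall below 278 while the same windows were ranked. It moved to 144 with limits of 0.40 and 0.60, 472 with limits of 0.50, 158 with 500-kb windows, 157 with 5 probes (115 of the 199 original windows still ranked stayed in) and 9 without dim probes, where 204 windows could be ranked and 1 of 8 original ones stayed in. Ranks depend on which windows are ranked. Without the 44k array 10585 windows were ranked, and the 2148 added ones had a median rank of 0.266 on the K562 new sorting array. The 278 windows then rose there by a median of 0.0872, and 174 of them stayed in the set. The share of probes in named genes was 67.5% with 5 probes. Calls between manual and automated U2OS (all windows, then the 278; main 751 and 13) were 2794 and 45 with no scaling, 2083 and 33 with no scaling and a replicate block, 1339 and 31 with no background subtraction, 1301 and 27 with normexp, 1166 and 22 with loess, 1151 and 24 with 5 probes, and 19 and 0 without dim probes, a limma count with few windows. With the replicate block alone they were 1117 and 15. Leaving out each array gave 167 to 2391 and 0 to 56 calls; the lone array is then assumed to vary like the other group. The 4 windows named for handling kept their sign under each setting run, but the balance of calls did not: with no scaling 43 of the 278 windows were called earlier and 2 later on automated arrays (32 and 1 with the replicate block), against 5 and 8 in the main setting, and without dim probes 16 of all windows were earlier and 3 later. The causes were not tested.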
